A study of Mus musculus with 6 samples.

Results

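The marker genes of keratinocytes and other epithelial cells, Krt5, Krt14, Krt8, Krt18, Krt19, Krt7, Epcam, Cdh1, Trp63 and Dsp, were followed in RNA-Seq counts from mouse skin cultures. The list is defined by cell type and uses no measured value, although it was drawn up with earlier results of these data known. All 10 were among the 55487 gene identifiers counted, and 5 of them (Krt5, Krt19, Krt7, Trp63 and Dsp) were among the 19015 genes that passed the filter on low counts. The cultures are labelled endothelial and came from C57BL/6 skin, with 4 to 6 mice aged 2 to 3 months used per isolation, collagenase digestion and selection on CD31 beads. They were kept for 48 hours in normal glucose (5 mmol/L, 3 samples) or high glucose (20 mmol/L, 3 samples). No osmotic control is among the labels. The study's text counts its RNA-Seq replicates by mice, whereas the labels do not say whether the samples of a group are separate isolations. If they are not, P values measure only technical spread.

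Keratins are the intermediate filament proteins of epithelial cells, and a filament needs a type I and a type II keratin together. Krt5 (type II) and Krt14 (type I) form the filaments of basal keratinocytes, whereas Krt8 and Krt18 are the pair of simple epithelia, in which Krt7 and Krt19 are also found. Trp63 encodes p63, a transcription factor of the basal epidermal layer. Epcam and Cdh1 (E-cadherin) encode adhesion proteins of the epithelial surface, and Dsp encodes desmoplakin, which ties keratin filaments to desmosomes.

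The sequence upstream of the basal keratin Krt5 and of the simple-epithelial keratin Krt18 is shown, to set the promoter of a keratin that was higher in high glucose beside that of one counted only in normal glucose. The choice of this pair rests on measured values. Krt18 was not tested and its groups overlapped at 0, so no opposite change is established for the pair. Each line is taken from the 250 bases before the transcription start listed by RefSeq on GRCm38.p6, 5′ to 3′ along the gene. The last 36 bases of the Krt18 window lie inside the gene as GENCODE places it and were left off, so 214 are printed. Capitals mark CAGGTG on either strand, E-box letters that Snai and Zeb repressors are known to bind.
Krt5 (chr15:101712906-101713155, minus strand): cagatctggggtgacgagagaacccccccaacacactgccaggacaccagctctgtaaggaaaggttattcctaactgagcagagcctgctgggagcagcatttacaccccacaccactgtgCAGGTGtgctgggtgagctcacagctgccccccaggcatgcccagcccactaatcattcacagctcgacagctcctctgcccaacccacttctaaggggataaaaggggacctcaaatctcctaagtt
Krt18 (chr15:102027966-102028179, plus strand): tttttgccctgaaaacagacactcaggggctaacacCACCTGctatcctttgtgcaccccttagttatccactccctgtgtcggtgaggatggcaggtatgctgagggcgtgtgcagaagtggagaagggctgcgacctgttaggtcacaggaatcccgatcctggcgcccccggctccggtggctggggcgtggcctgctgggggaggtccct
The RefSeq table held a window for 7 of the 10 genes. RefSeq and GENCODE differ in several starts. All 250 bases of the Krt14 and Krt7 windows and 140 of the Krt8 window lie inside the GENCODE gene, and these windows are not printed. CAGGTG was outside the gene in Krt5, Krt18 and Epcam, only inside it in Krt8 and Krt7, in neither for Dsp and Krt14, and in 17.2% of all 32851 RefSeq windows. The other motifs were searched on both strands. TATAAA and TGANTCA were in no member's window, against 12.4% and 6.75% of all windows. GGGCGG was in those of Krt7, Epcam and Dsp (32.7% of all) and GCCNNNGGC in those of Krt18, Krt7 and Dsp (13.7% of all), and in Krt7 and Dsp a match of one overlaps a match of the other. A match describes letters and not a bound site.

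Total counts lay between 120192466 and 146881356 in each sample, and 3 counts, the limit that a count of 0 allows, corresponded to 0.0211 to 0.0258 CPM (counts scaled to a common library size) after TMM normalization. Such limits cover counting error only. Endothelial markers were uneven. Of 16 listed, 12 were tested, 3 fell and 2 rose, where 14.5% of all tested genes fell and 16.9% rose. Erg, 1 of the 2 that rose, passed the filter only through high glucose. Fitted in edgeR without a filter, Erg was not called (adjusted P = 0.087), and over the other settings 1 or 2 rose. Pecam1 (CD31), the marker of the selection, had 0.128 ± 0.0378 CPM in normal and 0.103 ± 0.0359 CPM in high glucose (SD, n = 3), and Tie1, Cldn5 and Emcn had at most 2, 4 and 9 counts. Kdr had 4.96 ± 0.457 and 5.50 ± 0.228 CPM, and Cdh5 had 1.80 ± 0.0797 and 0.876 ± 0.0806 CPM (SD, n = 3). Eng and Flt1, which other cells also express, made up most of the endothelial list, whose 16 genes summed to 231 to 258 raw CPM (counts over the library total) in normal and 192 to 200.3 in high glucose. The 12 fibroblast genes summed to 40763 to 43619 raw CPM in normal and 68787 to 72813 in high glucose. Of these 12, 10 rose and 2 fell, where 16.9% of all tested genes rose and 14.5% fell.

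Epithelial marker transcripts were scarce in all 6 samples. The 10 genes together held 418, 614 and 484 counts at normal glucose against 565, 416 and 547 at high glucose. This was 3.97 ± 0.535 and 3.72 ± 0.271 raw CPM (SD, n = 3), and the ranges overlapped (two-sided exact permutation test, P = 0.5, where 3 samples against 3 cannot give less than 0.1). TMM factors were 1.04, 1.05 and 1.03 in normal and 0.966, 0.954 and 0.963 in high glucose, so the sign of this small difference depends on the scaling. Trp63 held most of the summed counts. The other 9 genes summed to 1.62 ± 0.240 and 1.32 ± 0.174 raw CPM (SD, n = 3, P = 0.2 by the same exact test). In bulk RNA, the number of cells of a type and the RNA per cell cannot be told apart.

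Of the 5 tested members, 1 was called lower (Krt19) and 1 higher (Krt5), where 31.4% of all tested genes were called, 14.5% lower and 16.9% higher. The call is an adjusted P below 0.05 in edgeR. Among the 8055 tested genes averaging 0.05 to 5 CPM, the range of these 5 members, 22.2% were called. The groups did not overlap for 3 of the 10 members, 1 with high glucose lower (Krt19) and 2 with it higher (Krt5 and Krt14). Krt14 was not tested. Among the 5 tested members the separate ones were Krt19 and Krt5, against 46.4% of all tested genes, 21.3% lower and 25.1% higher.

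**Figure D1:**
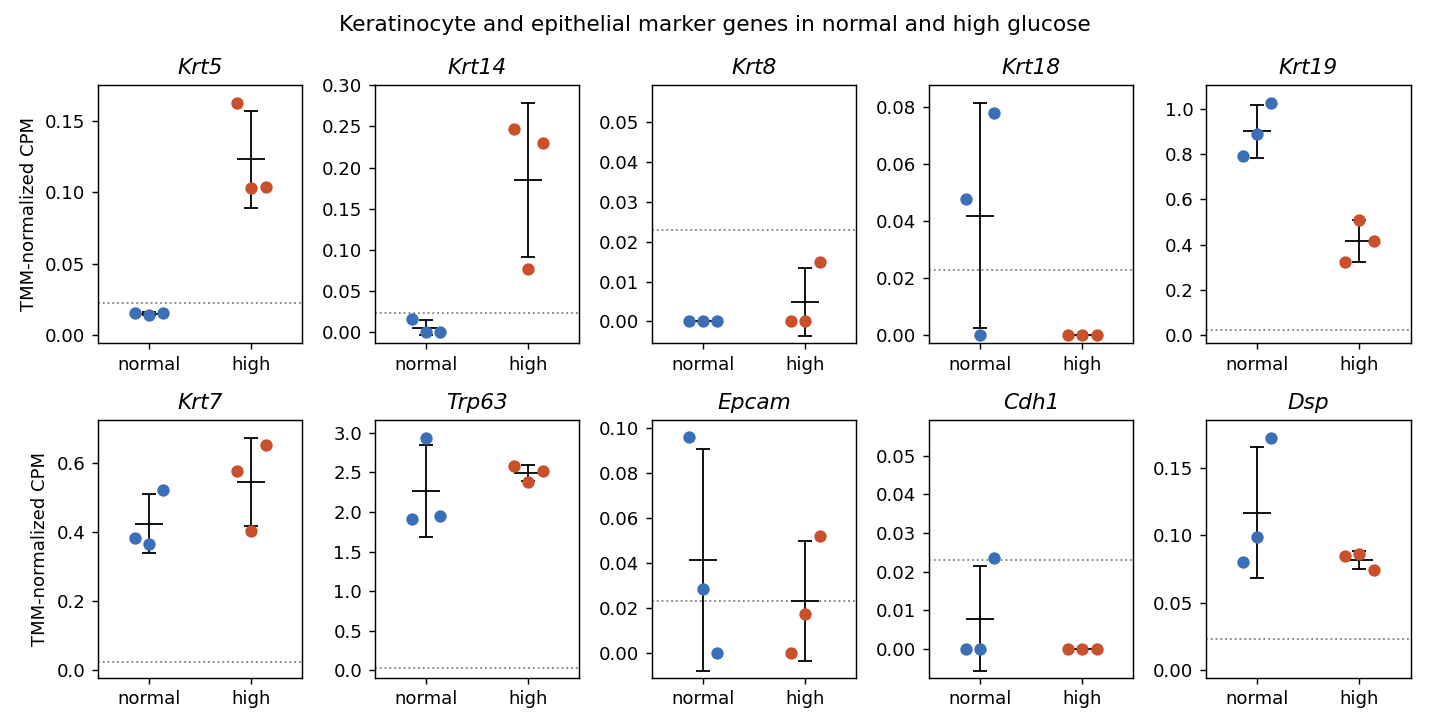
TMM-normalized CPM of each of the 10 marker genes (vertical axis, own linear scale per gene) in the 3 normal and 3 high glucose samples, with mean and SD. The dotted line is the level of 3 counts. The groups are separate for Krt5, Krt14 and Krt19 and overlap for the other 7 genes.

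Krt5 (ENSMUSG00000061527, chromosome 15, 101707070 to 101712898, minus strand, all positions on GRCm38) was counted 2 times in every normal glucose sample, against 23, 12 and 14 times in high glucose replicates 1, 2 and 3. Every high glucose sample was above every normal glucose sample. The level went from 0.0152 ± 0.000996 to 0.123 ± 0.0338 CPM (SD, n = 3), and the log2 ratio of high over normal glucose was 2.95 (SE 0.51, adjusted P = 0.00148). The summed counts had a ratio of 8.21 with a 95% counting interval of 3.51 to 23.5. In the whole table counts of 4 were more frequent than counts of 3 (4874 against 4716 entries) and counts of 6 than counts of 5 (3012 against 2810). Were both reads of a pair counted, which was not tested, the counts would overstate the molecules and such intervals and floors would be too narrow. Krt5 passed the filter only through its high glucose samples, so its call is not independent of the filter. Fitted without a filter, in which 15.1% of 31922 genes were called, the log2 ratio was 2.93 (SE 0.46, adjusted P = 0.00296).

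Krt14 (ENSMUSG00000045545, chromosome 11, 100203162 to 100207548, minus strand), the filament partner of Krt5, had 2, 0 and 0 counts in normal glucose against 35, 9 and 31 in high glucose. The groups were again separate, and replicate 2 was the lowest high glucose sample for both keratins. Its 9 counts kept Krt14 below the filter. Fitted without a filter the log2 ratio was 4.94 (SE 0.86, adjusted P = 0.00484), and the ratio of summed counts was 37.7 with a 95% counting interval of 10.1 to 317. DESeq2 called Krt14 (adjusted P = 2.6e-04) and gave Krt5 an unadjusted P of 0.00104 with no adjusted value.

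Krt5 and Krt14 together went from 0.0214 ± 0.0103 to 0.296 ± 0.113 raw CPM (SD, n = 3). Both genes were already separate in the same direction. The two-sided exact permutation P of their sum, 0.1, the lowest that this design can give, was therefore fixed in advance and adds nothing. With all counts halved, neither gene passed the filter. Of the 10 other keratins listed for stratified epithelium, only Krt10 had more than 6 counts in any sample. Krt2, Krt17 and Krt77 had 0 counts in all samples, Krt15 gave 4 at normal glucose throughout and 0, 6 and 0 at high glucose, and Krt6a gave 0 at normal glucose but 4, 3 and 0 at high glucose. The 10 listed keratins summed to 2.19 to 3.01 raw CPM at normal and 1.89 to 2.06 at high glucose, most of it Krt10. After TMM normalization Krt10 itself overlapped between groups, and it was not called. The part of keratinocyte number in the Krt5 and Krt14 values was not tested.

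Near-identical relatives can share keratin reads. Of the 50-base stretches in Krt5 transcripts, 12.2% also occur in other genes, most often Krt6a, which had at most 4 counts. For Krt14 the share was 13.9%, with Krt16 (at most 2 counts) and Krt17 (0 counts). For Krt8 it was 29.7%, chiefly with the pseudogene Krt8-ps, which had at most 2 counts. Krt7 shared only 0.916% of its stretches, but with 162 other genes, among them Smyd3, which had 1115 to 1277 counts.

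The simple-epithelial pair was barely counted. Krt8 (ENSMUSG00000049382, chromosome 15, 101996698 to 102004482, minus strand) had 0 counts in 5 samples and 2 in high glucose replicate 3. Krt18 (ENSMUSG00000023043, chromosome 15, 102028180 to 102032027, plus strand) had 6, 0 and 10 counts in normal glucose and 0 in each high glucose sample. Both genes overlapped between groups at 0. The ratio of summed Krt18 counts, high over normal glucose, had a 95% counting interval from 0 to 0.261, but the fit without a filter did not call the gene (adjusted P = 0.127).

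Krt19 (ENSMUSG00000020911, chromosome 11, 100140810 to 100148665, minus strand), a type I keratin of simple epithelium, fell. It had 99, 126 and 131 counts in normal glucose against 46, 59 and 56 in high glucose. Each high glucose sample was below each normal glucose sample. The level went from 0.901 ± 0.117 to 0.416 ± 0.0916 CPM (SD, n = 3), a log2 ratio of -1.12 (SE 0.20, adjusted P = 0.00165). None of its 50-base stretches occurs in another annotated gene. The fall was called in all 14 alternative settings that tested Krt19, with log2 ratios from -1.30 to -0.99 and adjusted P values from 3.8e-04 to 0.00977.

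Krt7 (ENSMUSG00000023039, chromosome 15, 101411043 to 101430313, plus strand), a type II keratin of simple and glandular epithelium, had 48, 52 and 67 counts in normal glucose against 82, 47 and 88 in high glucose. After normalization high glucose replicate 2 lay within the normal glucose range and the other 2 above it, so the groups overlapped. The log2 ratio was 0.37 (SE 0.23, adjusted P = 0.253).

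Trp63 (ENSMUSG00000022510, chromosome 16, 25683763 to 25892102, plus strand) had the most counts of the 10 genes, with 239, 416 and 249 in normal glucose against 367, 277 and 339 in high glucose. The levels were 2.26 ± 0.581 and 2.49 ± 0.104 CPM (SD, n = 3), and normal glucose replicate 2 was the highest of the 6 samples. The log2 ratio was 0.14 (SE 0.16, adjusted P = 0.551). Leaving out that replicate gave 0.36 (adjusted P = 0.0369). Of its relatives, Trp53 had 73.4 ± 0.614 and 73.3 ± 2.27 CPM (SD, n = 3) and was not called, and Trp73 had at most 6 counts. Counts are per gene, so p63 isoforms were not separated.

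The adhesion members were at or near the floor. Cdh1 (ENSMUSG00000000303, chromosome 8, 106603351 to 106670246, plus strand) had 3 counts in normal glucose replicate 3 and 0 in the other 5 samples. Epcam (ENSMUSG00000045394, chromosome 17, 87635979 to 87651129, plus strand) had 12, 4 and 0 counts in normal glucose against 0, 2 and 7 in high glucose. Neither passed the filter, and both overlapped between groups. Dsp (ENSMUSG00000054889, chromosome 13, 38151294 to 38198577, plus strand) had 10, 14 and 22 counts in normal glucose against 12, 10 and 10 in high glucose, which overlapped, and a log2 ratio of -0.51 (SE 0.40, adjusted P = 0.363). Gm10129 covers 499 exonic bases of Dsp on the opposite strand and had at most 2 counts.

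Per length, the mean over all 6 samples was 0.355 CPM per kb of exon for Krt19 and 0.283 for Trp63. Krt7 followed with 0.0688, Krt14 with 0.0541 and Krt5 with 0.0315 CPM per kb. Epcam (0.0147), Krt18 (0.0146) and Dsp (0.0103 CPM per kb) came next, and Krt8 and Cdh1 were lowest. Krt14 and Krt5 held these places only through high glucose. In normal glucose, Krt5 (0.00693 CPM per kb) and Krt14 (0.00303) were below Krt18 (0.0292), Epcam (0.0188) and Dsp (0.0121). Krt19 was above Trp63 in normal glucose (0.486 against 0.270 CPM per kb) and below it in high glucose (0.224 against 0.297). The sample ranges of Krt19 (0.175 to 0.552) and Trp63 (0.227 to 0.349 CPM per kb) overlapped, while all Trp63 samples were above all Krt7 samples (0.0520 to 0.0926 CPM per kb). Further down, only Dsp and Krt8 were separate in their sample ranges among neighbours in this order. With the longest transcript as length, Trp63 (0.443 CPM per kb) came before Krt19 (0.418). Vim (vimentin), the filament protein of mesenchymal cells, had 462 CPM per kb of exon.

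**Figure D2:**
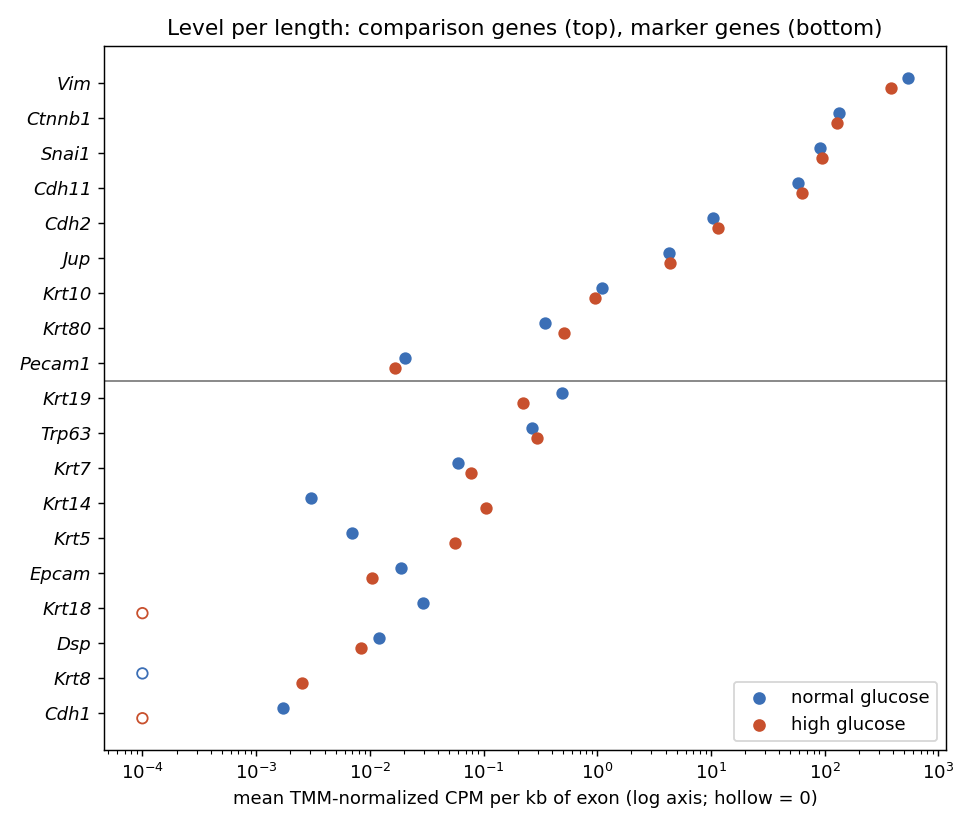
Mean TMM-normalized CPM per kb of exon (log axis) in normal and high glucose for 9 comparison genes, drawn above the 10 marker genes. Hollow points mark a mean of 0. Krt19 (0.486) is the highest marker gene in normal glucose and Trp63 (0.297) in high glucose, and Vim (462 over all samples) is the highest comparison gene.

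The 7 lists of other epithelial genes were also chosen with earlier results of these data known. They held 92 genes, of which 43 were tested. Of these 43, 20 fell (46.5%), 6 rose (14%) and 17 did not pass the test, where 14.5% of all tested genes fell and 16.9% rose. Of the 32 with a mean up to 5 CPM, 15 fell, and of the 8055 genes averaging 0.05 to 5 CPM, 1099 fell and 687 rose. Their median log2 ratio was -0.32, against 0.0062 for all tested genes. With library size scaling these medians were -0.44 and -0.11. The number of list genes that fell was 18 without a filter and 17 with DESeq2 or the replicate block.

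**Figure D3:**
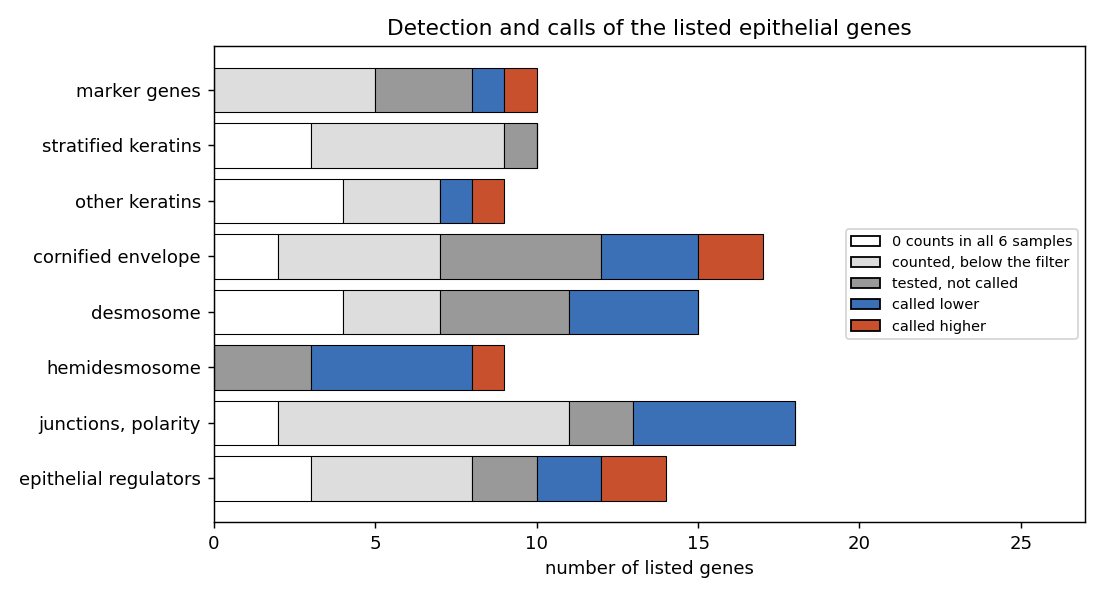
Number of genes per list (horizontal axis), divided into those with 0 counts in all 6 samples, those counted but below the filter, those tested and not called, and those called lower or higher in high glucose. Of the 10 marker genes, 5 were below the filter, 3 were not called, 1 was lower and 1 higher.

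Most keratin genes had few counts or none. Of 54 annotated keratin genes, members included, 33 had at most 3 counts in every sample, 25 of these 0 throughout. Only 8 were tested, of which 2 fell and 3 rose, against 14.5% and 16.9% of all tested genes. Krt10, a suprabasal keratin, gave 356, 290 and 265 counts at normal against 290, 236 and 263 at high glucose and was not called (log2 ratio -0.21, adjusted P = 0.292). Krt80 rose from 2.22 ± 0.167 to 3.25 ± 0.263 CPM (SD, n = 3, log2 ratio 0.55). Krt83, a hair keratin, gave 0, 0 and 10 counts at normal against 27, 26 and 23 at high glucose (log2 ratio 2.89, adjusted P = 0.0170), passed the filter only through high glucose, and was not called without a filter (adjusted P = 0.0555). Krt20, a keratin of Merkel and gut cells, fell from 0.459 ± 0.0867 to 0.243 ± 0.0627 CPM (SD, n = 3, log2 ratio -0.92).

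Of 17 genes of the cornified envelope, the cross-linked shell of mature keratinocytes, 10 were tested, 3 fell and 2 rose. Ivl (involucrin) had 38, 45 and 42 counts in normal glucose against 12, 12 and 6 in high glucose and a log2 ratio of -2.03 (SE 0.32, adjusted P = 0.00076). Lor (loricrin) and Sfn (14-3-3 sigma) also fell, with log2 ratios of -0.99 and -0.49. Tgm1, the transglutaminase of the envelope, rose from 6.49 ± 0.306 to 10.7 ± 0.973 CPM (SD, n = 3, log2 ratio 0.72), and Dmkn (dermokine) rose with 1.32. Sbsn had 19.3 ± 2.20 and 21.7 ± 0.913 CPM (SD, n = 3) and was not called.

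Of 15 desmosome genes, 8 were tested and 4 fell. None rose in edgeR, where 0 were higher at an unadjusted P below 0.05, or in DESeq2. Dsg1a, Dsg1b, Dsg2 and Dsc1 had 0 counts in all samples. Dsc2, a desmosomal cadherin, had 187, 298 and 230 counts in normal glucose against 82, 79 and 83 in high glucose and a log2 ratio of -1.53 (SE 0.16, adjusted P = 4.7e-05). Perp, Pkp3 (a plakophilin) and Ppl (periplakin) fell with -1.47, -0.96 and -0.53. Jup (plakoglobin) and Pkp4 had the most counts and log2 ratios of 0.031 and -0.12 that were not called.

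All 9 hemidesmosome and basement membrane genes were tested, 5 fell and 1 rose. Col7a1, the anchoring fibril collagen, fell from 114 ± 11.4 to 59.9 ± 5.52 CPM (SD, n = 3, log2 ratio -0.93). Itga6 and Cd151 fell with -0.65 and -0.42. Dst (dystonin) rose from 127 ± 13.9 to 249 ± 25.1 CPM (SD, n = 3, log2 ratio 0.97). Dermal and vascular cells also express several of these genes.

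Of 18 junction and polarity genes, 7 were tested and 5 fell, with a median log2 ratio of -1.23 over the 7. Ocln, 1 of the 5, passed the filter only through normal glucose. Fitted in edgeR without a filter, Ocln was not called (adjusted P = 0.058), though 5 genes of the list were called lower. Where a mean of at least 1 CPM was required, 1 was called lower. Cdh3 (P-cadherin), a cadherin of basal keratinocytes, had 306, 365 and 407 counts in normal glucose against 189, 152 and 201 in high glucose, without overlap, and a log2 ratio of -0.99 (SE 0.13, adjusted P = 2.5e-04). St14 (matriptase), Cldn1 and Cldn3 fell with -1.35, -1.27 and -1.23. Spint2, an inhibitor of matriptase, had a log2 ratio of 0.028 and was not called.

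Of 14 regulators of epithelial identity, 6 were tested, 2 fell and 2 rose. Ovol2, Elf5 and Esrp1 had 0 counts throughout and Grhl2 at most 4. Klf5 rose from 0.834 ± 0.0973 to 1.46 ± 0.210 CPM (SD, n = 3, log2 ratio 0.81). Tfap2a rose and Esrp2 fell with log2 ratios of 0.25 and -0.63, and their adjusted P values were near the threshold, at 0.0401 and 0.0471. The number that fell was 0 with DESeq2, without a filter and with the replicate block, and without a filter only 1 rose (Klf5).

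**Figure D4:**
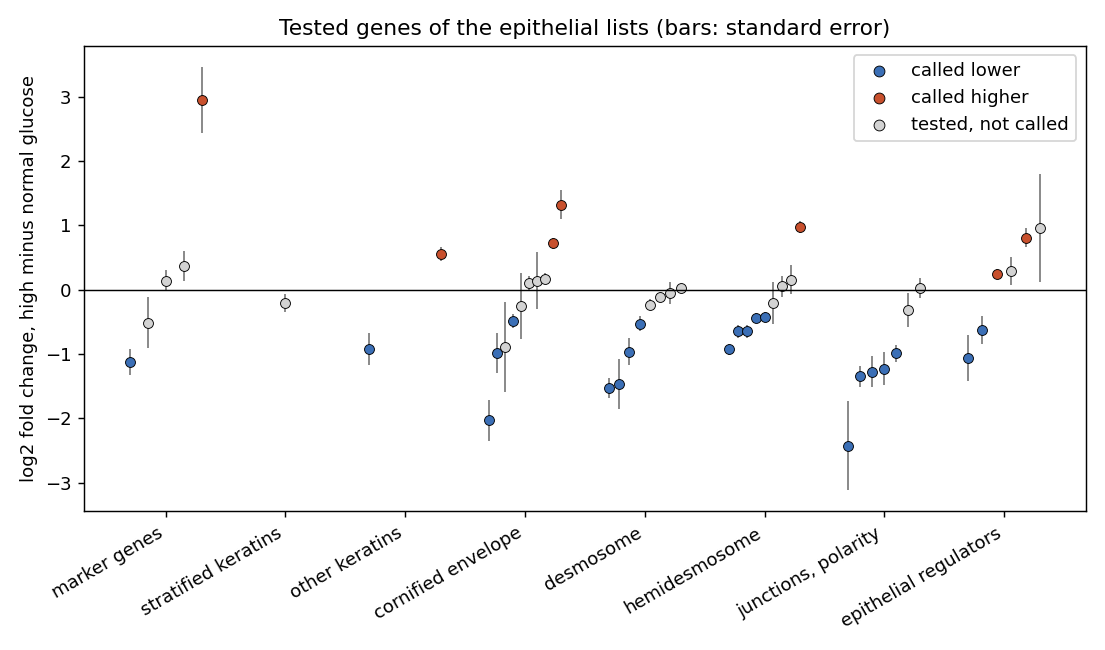
Log2 ratio of high over normal glucose for each tested gene among the marker genes and 7 epithelial lists, with standard errors and colours for the call. Krt5 is at 2.95, and 5 of 7 junction genes and 5 of 9 hemidesmosome genes were called lower.

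Transcripts of proteins listed as direct or indirect partners of E-cadherin were well counted although Cdh1 was not. All 6 genes of this list were tested and edgeR called 0, with 1 lower and 2 higher at an unadjusted P below 0.05, whereas DESeq2 called 1 lower and 1 higher. Ctnnb1 (beta-catenin) had 699 ± 35.8 and 666 ± 8.38 CPM (SD, n = 3). Cdh11 and Cdh2 (N-cadherin) had 564 ± 15.8 and 93.2 ± 1.58 CPM in high glucose (SD, n = 3) and were not called, Cdh4 and Cdh5 fell with -1.53 and -1.03, and Cdh6 rose with 0.80. All 8 factors known to repress Cdh1 were tested, 2 fell and 3 rose, where 14.5% of all tested genes fell and 16.9% rose. Snai1 had 149 ± 17.3 and 155 ± 6.33 CPM (SD, n = 3) and was not called, Snai2 and Twist2 fell with -0.46 and -0.70, and Zeb2 and Tcf3 rose with 0.40 and 0.17. The number that rose was 1 with upper quartile or library size scaling, without a filter, where Tcf3 had an adjusted P of 0.0766, and with the replicate block. Their part in the level of Cdh1 was not tested.

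Of 11 genes of non-keratin filaments and linkers, all were tested and 6 fell, where 14.5% of all tested genes fell. Over the settings 3 to 7 of the 11 fell. None rose in edgeR, where 0 were higher at an unadjusted P below 0.05, or in DESeq2. Vim fell from 2568 ± 115 to 1819 ± 12.3 CPM (SD, n = 3, log2 ratio -0.50). Lmna and Lmnb1 (lamins) and Des (desmin) fell with -0.32, -0.51 and -0.71.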

How the data were processed

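RNA-Seq data of 3 normal and 3 high glucose samples were grouped by their labels. The authors used Trimmomatic, HISAT2 and StringTie on GRCm38 and deposited whole-number counts per gene and sample, not normalized. Versions, annotation and strand setting are not given in the sources used here.

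Genes were filtered with filterByExpr (minimum count 10, minimum total 15), normalized by TMM and tested in edgeR 4.0.16 under R 4.3.3 (quasi-likelihood, no covariate, Benjamini-Hochberg over 19015 genes, threshold 0.05). The code was tested on simulated data. Symbols, positions and exon lengths came from GENCODE annotation of GRCm38. Members and lists were chosen with earlier results of these data known. Named genes are the members and, per list, up to 4 called genes with the lowest adjusted P and the 2 with the most counts. Lor, Krt83, Kdr, Erg, Ocln and genes named for counts near 0 were added after their values were seen. Mesothelial, melanocyte, Merkel and gland markers were also counted. Alternatives were RLE, upper quartile and library size scaling, DESeq2 1.42.0, other filters and thresholds, halved counts, a replicate block and each sample left out.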

Additional observations from a re-analysis of the deposited data

How the results depend on the processing

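Members at 0 to 10 counts are limited by depth, and only a large change could be detected in them. The number of members called higher was 1, but 2 without a filter (Krt5 and Krt14) and 0 with halved counts, where Krt5 was not tested. DESeq2 called Krt14 and gave Krt5 no adjusted value (unadjusted P = 0.00104). Requiring a mean of at least 1 CPM left 1 member to test, with 0 called lower and 0 higher, and 9 in place of 20 genes of the 7 epithelial lists lower. Leaving out each sample gave 1 member lower and 1 to 3 higher. Krt14 was added without any single normal glucose sample or high glucose replicate 2, and Trp63 (0.36) without normal glucose replicate 2. Krt14 passed the filter in those fits only through its high glucose samples, so these calls are not independent of the filter. The log2 ratios then spanned 2.68 to 3.05 for Krt5, -1.30 to -0.99 for Krt19, 0.20 to 0.54 for Krt7, 0.013 to 0.36 for Trp63 and -0.73 to -0.15 for Dsp, and Krt14 spanned 4.40 to 7.64 over the 6 settings that tested it, the highest without its 1 normal glucose sample above 0. In the lists 15 to 19 genes were lower and 5 to 7 higher. The members' summed difference was -0.50 to 0.035 raw CPM. With the longest transcript as length, Krt7 had 0.118 and Trp63 had 0.443 CPM per kb. Library size scaling shifted the median of all genes by -0.11 and gave 4884 lower and 1819 higher calls in place of 2757 and 3212, and the threshold of 0.01 gave 1671 and 1946. None of 64 called list genes turned its direction under the other scalings. The shifts were smaller than the lowest called ratio (0.16, Twist1), so this outcome was close to fixed in advance. Of the counts per list and setting, 441 were within 1.5 times and 99 moved. Causes other than the filters and samples left out were not tested.

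Replicate numbers are shared by both groups but no label pairs them, and deviations of same-numbered samples correlated at -0.025, 0.0038 and 0.013. The replicate block gave 1 member lower and 1 higher, with log2 ratios of 2.93 for Krt5, -1.13 for Krt19, 0.35 for Krt7, 0.17 for Trp63 and -0.48 for Dsp.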

Other observations

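Markers of other keratin-bearing cells of skin and linings were counted as well. Of 10 mesothelial markers 4 were tested. Msln (mesothelin) fell from 0.398 ± 0.134 to 0.108 ± 0.0182 CPM and Wt1 rose from 0.117 ± 0.0389 to 0.303 ± 0.0574 CPM (SD, n = 3), with log2 ratios of -1.87 and 1.36, while Upk3b had at most 2 counts and Muc16 had 0. Of 7 Merkel cell markers 4 were tested. Krt20 and Sox2 fell and Piezo2 rose with log2 ratios of -0.92, -0.32 and 0.42, and Atoh1, which defines these cells, had at most 2 counts. Piezo2 overlapped between groups, and without a filter or with the replicate block 0 Merkel markers were called higher and 1 lower. Of 10 sweat gland and mammary luminal markers 5 were tested. Krt19 and Cldn3 fell, Esr1 rose from 10.3 ± 0.636 to 18.9 ± 0.662 CPM (SD, n = 3), and Foxa1 and Elf5 had 0 counts. Of 8 melanocyte markers 3 were tested. Pmel rose with 0.43, Sox10 fell with -0.36, and Tyr and Tyrp1 had 0 counts. With library size scaling 0 melanocyte markers were called higher, and with the replicate block 2.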
